A study of Mus musculus with 36 samples.

Results

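The 10 genes of the p53 pathway described here were followed across the hepatocyte cultures: Cdkn1a, Mdm2, Ccng1, Phlda3, Zmat3, Bax, Bbc3, Eda2r and Trp53inp1, which are known targets of p53, and Trp53, which encodes p53 itself. They were chosen by name, as 10 of the 52230 genes to which the reads were summed, and all 10 were among the 12177 genes that passed the filter on low counts. The hepatocytes came from 3 female mice of the GCKR-P446L line, aged 14 wk by the study's methods, with Gckr genotype 446L in mouse 1 and mouse 2 and 446P/L in mouse 3, and the series describes these cells as deficient in GKRP, the glucokinase regulatory protein. Each mouse gave 1 preparation and the same 10 conditions. Cultures were untreated (UN), or received an adenoviral vector for human GKRP-446P (hP), human GKRP-446L (hL), mouse GKRP-446P (mP) or mouse GKRP-446L (mL) at endogenous glucokinase (GK), or a vector for GK alone, or the GK vector together with 1 of the 4 GKRP vectors (GK+hP, GK+hL, GK+mP, GK+mL). All cultures were kept for 24 h at 5 mM glucose, with 10 nM dexamethasone and 10 nM insulin overnight, and then for 4 h at 25 mM glucose. The untreated cultures received no vector, no culture received an empty vector, and the cultures with GK and GKRP received a vector more than those with GK alone, so an effect of GKRP and an effect of adding a vector cannot be told apart.

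p53 is a transcription factor that is kept low by Mdm2, a ubiquitin ligase that is itself a p53 target, and that accumulates when DNA is damaged, replication stalls or the cell is otherwise stressed. Its targets fall into those that slow the cell cycle, led by Cdkn1a, which encodes the CDK inhibitor p21, those that feed back on p53, and those that promote death through mitochondria, such as Bax and Bbc3. In liver, Cdkn1a is known as a gene that rises when hepatocytes are stressed or are pushed to leave quiescence.

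p53 binds a pair of 10-base half-sites, each with the core C, A or T, A or T, G between 3 purines and 3 pyrimidines. The sites below are shown because they are the sequences in the GRCm39 genome that a search for this pattern found near the start of a member, with both cores exact, a spacer of at most 1 base and at most 2 mismatches in the 12 flanking positions, from 3000 bases before to 3000 bases after the start of the canonical transcript (Gencode M39). They are written 5′ to 3′ on the strand of the gene, with the cores in capitals. The pattern reads as itself on the other strand, so 1 search covers both strands.
Cdkn1a: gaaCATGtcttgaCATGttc
Trp53inp1: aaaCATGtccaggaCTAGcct
Zmat3: aaaCAAGcccaggCATGtct
Ccng1: acgCAAGcccgggCTAGtct
Bax: aggCAAGctttgaaCTTGcgg
The Cdkn1a sequence (chr17:29309902-29309921, plus strand) lies at -2836 relative to the canonical start and just outside the outermost annotated start of the gene at 29309936, with 1 mismatch. The Trp53inp1 sequence (chr4:11155112-11155132, plus strand) lies at -1300 relative to its start with 0 mismatches and a 1-base spacer. The Zmat3 sequence (chr3:32418480-32418499, minus strand) is intronic, 1409 bases after the start, with 0 mismatches, and a second match with 2 mismatches overlaps it. The Ccng1 sequence (chr11:40645763-40645782, minus strand) is intronic, 356 bases after the start, with 1 mismatch. The Bax sequence (chr7:45116503-45116523, minus strand) lies at -198 relative to the start with 2 mismatches and a 1-base spacer. Such a sequence was held by 5 of the 10 genes, against 1724 of 21767 windows of protein-coding genes (7.9%), and 4 held it with at most 1 mismatch, against 399 windows (1.8%). Apart from Trp53, the members were chosen as known p53 targets. A higher share can follow from that choice, so it is no independent support for the set. The windows of Mdm2, Phlda3, Bbc3, Eda2r and Trp53 held none. A match is a description of the sequence, since no binding was measured.

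Libraries held between 3924674 and 10046158 estimated reads. Hepatocyte markers were abundant (summed level 73545.8 to 139923.9 CPM, which are read counts scaled to the library size) in every sample, and 3 of 4 lymphocyte markers, 3 of 5 cholangiocyte markers and 3 of 6 stellate cell markers were under 1 CPM on average, while the lists summed to 0.815 to 4.92 CPM for lymphocytes, 15.4 to 244.6 CPM for cholangiocytes, 20.4 to 152.6 CPM for stellate cells, 204.9 to 336.6 CPM for the 8 macrophage markers and 50.5 to 112.9 CPM for the 6 endothelial markers. The cholangiocyte sum was 22.6 to 244.6 CPM in untreated samples and 16.8 to 167.2 CPM with the 4 vectors, and its part in the members' results was not tested. No marker was called in any comparison, and with the mouse as a block 1 was, the stellate cell marker Reln, which fell by 0.67 on the log2 scale with GK+mP against GK. Gckr exceeded 9010 CPM in every culture with a mouse GKRP vector. 1 GK culture of mouse 3 held 1459.4 CPM of Gckr against 51.6 to 97.8 CPM in the other 5, and leaving it out changed no call of a member. The length that transcripts lost to fragment size in the authors' effective lengths differed between libraries from 153.1 to 851.5 bases.

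The members differed widely in the reads behind their values. Levels are compared between conditions and not between genes, since the bases lost to fragment size are a large part of a short transcript. Bbc3 rested on 3 to 57 reads per library, and Eda2r and Phlda3 on 43 to 134 and 50 to 208 reads, whereas Cdkn1a had 789 to 2668. The highest of the 10 condition means was between 1.11 times (Ccng1) and 1.58 times (Phlda3) the lowest for 9 members, and 3.68 times for Bbc3. In the order of the condition means, neighbouring conditions differed by more than the larger of their 2 SDs for 1 of 9 pairs in Cdkn1a, in Phlda3 and in Bbc3, and for 0 of 9 in the other members.

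**Figure D1:**
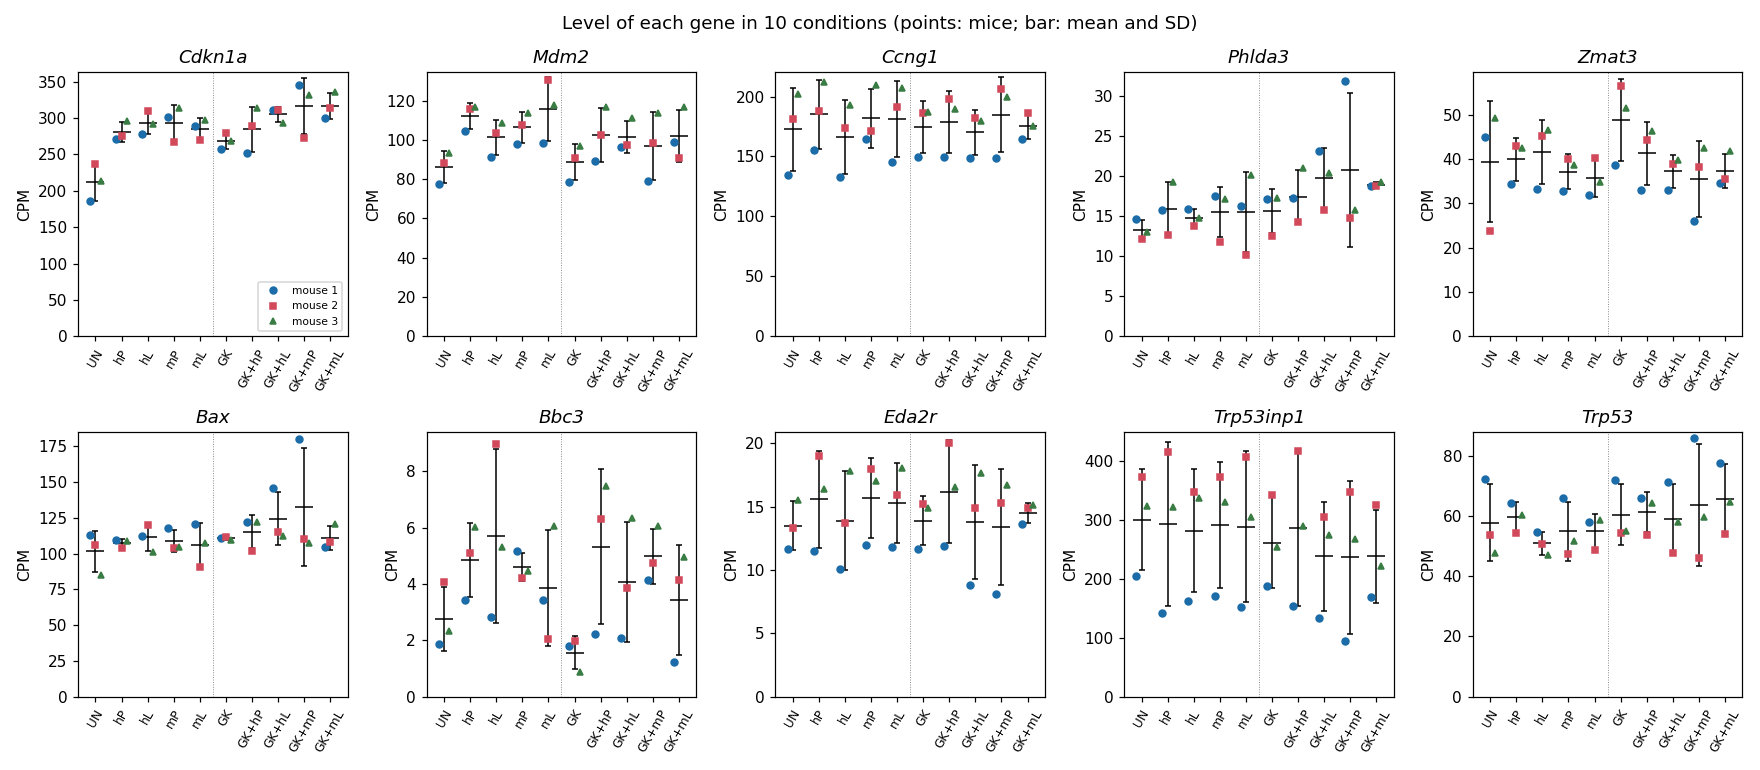
Level of the 10 members in CPM (y axis, from 0) in the 10 conditions (x axis), with 1 point per mouse and bars for mean ± SD (n = 3). Untreated Cdkn1a lies below all other conditions (185.9 to 237.1 CPM in UN), while most other members overlap across conditions.

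Cdkn1a, the gene of the CDK inhibitor p21, was the member that rose with the GKRP vectors. Its level in untreated hepatocytes was 185.9, 237.1 and 214.0 CPM in mouse 1, 2 and 3. It was 270.9, 275.7 and 295.8 CPM with hP, and 278.3, 309.6 and 292.3 CPM with hL. It was 301.4, 266.8 and 313.3 CPM with mP, and 289.3, 269.3 and 297.1 CPM with mL. All 12 samples with a GKRP vector lay above all 3 untreated samples. The mean of the 4 vectors was 1.36-fold the untreated level (log2 fold change 0.44, SE 0.09, adjusted p = 0.00452 with edgeR's quasi-likelihood test). By vector, the log2 fold change was 0.47 with hL (SE 0.11, adjusted p = 0.0282) and 0.47 with mP (SE 0.11, adjusted p = 0.025), both called, and 0.40 with hP (adjusted p = 0.0869) and 0.43 with mL (adjusted p = 0.0515), which were not. With the mouse as a block all 4 were called, at adjusted p = 0.0161 for hP, 0.00445 for hL, 0.00394 for mP and 0.00845 for mL, where 2.46%, 2.97%, 3.31% and 3.16% of all genes were called, and 4.16% for the mean of the 4. With hP and mL it was also called by DESeq2 (1.4% and 1.61% of all genes) and with each culture as a sample (1.33% and 1.68%). These 4 comparisons share the same untreated samples. Without mouse 1 the log2 fold change of the 4 vectors was 0.35 (adjusted p = 0.114), without mouse 2 it was 0.54 (adjusted p = 0.0323) and without mouse 3 it was 0.39 (adjusted p = 0.532), and with no filter on low counts it was 0.41 (adjusted p = 0.0872). With an offset for transcript length it was 0.73 with an SE of 0.30 (adjusted p = 0.242).

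Cdkn1a was 1 of 10 members called for the mean of the 4 vectors, against 1.89% of all genes tested. It was likewise the 1 member called with hL and with mP, where 0.879% and 1.12% of all genes were called, and 0 members were called with hP and mL, where 0.78% and 1.05% of all genes were. It was the 1 member whose 12 vector samples all exceeded the untreated samples (1.95% of all genes did), and no member lay wholly below (1.13% of all genes). Within mice, all 12 vector samples of Cdkn1a exceeded the untreated sample of the same mouse, by 0.17 to 0.70 on the log2 scale, which also held for Mdm2 and for 5.17% of all genes. The mean log2 ratio was 0.61 in mouse 1, 0.24 in mouse 2 and 0.48 in mouse 3. It was smallest in mouse 2, whose untreated level was the highest. Of genes described below, Pcna (0.62), Chek1 (2.08), Ccne2 (1.92), Cdk2 (1.12) and Pidd1 (0.85) also had their smallest ratio in mouse 2. Mdm2 had its largest there (0.37). What sets mouse 2 apart was not tested. The Cdkn1a levels with a vector overlapped between the mice.

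With GK alone Cdkn1a was 257.2, 279.0 and 268.4 CPM. These 3 samples also lay above the 3 untreated samples, as those of 3.02% of all genes did, and Cdkn1a was the 1 member for which they did. No member lay wholly below, against 3.49% of all genes. The log2 fold change was 0.34 (SE 0.11, unadjusted p = 0.0042, adjusted p = 0.989) and was not called. Taken as single cultures the groups met, since 1 GK culture of mouse 1 was at 223.8 CPM and the untreated cultures reached 244.7 CPM. No member was called for GK against untreated, where 1 gene in all was (0.00821%) and 1 member had an unadjusted p under 0.05. DESeq2 called 0 members and 32 genes there.

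Adding a GKRP vector to GK moved Cdkn1a less. It was 252.1, 288.8 and 313.6 CPM with GK+hP, and 311.0, 310.8 and 293.3 CPM with GK+hL. It was 344.9, 272.1 and 331.9 CPM with GK+mP, and 299.8, 314.5 and 335.8 CPM with GK+mL. These 12 samples overlapped the GK samples, and 10 of 12 exceeded the GK sample of the same mouse. The mean of the 4 vectors was 0.19 above GK alone on the log2 scale (SE 0.08, adjusted p = 0.44). The difference between this step and the step at endogenous GK, the vector by GK interaction, was -0.25 (95% interval -0.49 to -0.02, unadjusted p = 0.0431, adjusted p = 1.0). With GK and a GKRP vector, Cdkn1a stood 0.08 above the same vector alone (95% interval -0.02 to 0.19).

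**Figure D2:**
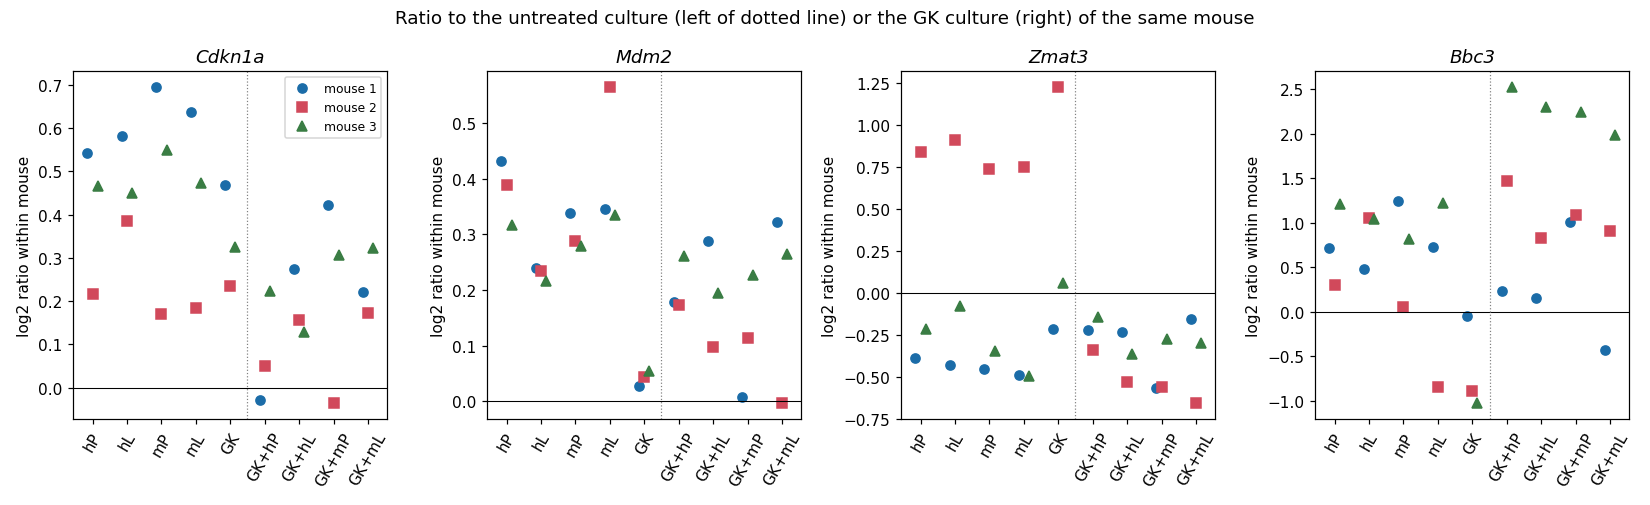
Log2 ratio of CPM (with 0.5 added) within a mouse (y axis) for Cdkn1a, Mdm2, Zmat3 and Bbc3, with each GKRP vector and GK set against UN (left of the dotted line) and each GKRP vector with GK set against GK (right). All 12 Cdkn1a and all 12 Mdm2 ratios of the vectors to UN are above 0, and all 12 Zmat3 ratios on the right are below 0.

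Mdm2, the ligase that marks p53 for degradation, showed a smaller difference of the same sign. It was 77.3, 88.1 and 93.5 CPM in untreated hepatocytes. With hP it was 104.4, 115.5 and 116.6 CPM, and with hL it was 91.4, 103.7 and 108.7 CPM. With mP it was 97.9, 107.7 and 113.6 CPM, and with mL it was 98.3, 130.6 and 118.0 CPM. The lowest vector sample, hL of mouse 1, lay within the untreated range, but each of the 12 exceeded the untreated sample of its own mouse. The log2 fold change of the 4 vectors was 0.33 (SE 0.11, adjusted p = 0.178) and was not called. With the mouse as a block Mdm2 was called with hP (0.38, SE 0.08, adjusted p = 0.0076) and with mL (0.42, SE 0.08, adjusted p = 0.00263), which raised the members called to 2 for each of these vectors, while the share of all genes called rose to 2.46% for hP and 3.16% for mL. For the mean of the 4 vectors the block gave 0.33 (SE 0.06, adjusted p = 0.00187) and for mP 0.30 (SE 0.08, adjusted p = 0.0301), which passed the p threshold but lay below the fold of 1.3 that a call requires. The ratio within mice was 0.34, 0.37 and 0.29 in mouse 1, 2 and 3, so the step was of like size in the 3 preparations. With GK alone Mdm2 was 78.8, 90.8 and 97.1 CPM, which overlapped the untreated samples (log2 fold change 0.04, 95% interval -0.23 to 0.31). With GK and a GKRP vector it ranged from 79.2 to 116.7 CPM, and the mean of the 4 vectors was 0.18 above GK alone (SE 0.11, adjusted p = 0.7).

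The other targets tied to growth arrest and stress did not pass the test in any comparison. Ccng1, the gene of cyclin G1, was 134.9, 181.1 and 202.5 CPM in untreated hepatocytes and 132.8 to 212.5 CPM in the 12 vector samples. The groups overlapped fully and the log2 fold change was 0.05 (95% interval -0.23 to 0.33). With the mouse as a block it was 0.05 (95% interval -0.07 to 0.18). Phlda3, which encodes a small protein that competes with Akt for membrane lipids, was 14.6, 12.1 and 13.0 CPM untreated, 10.2 to 20.1 CPM with the 4 vectors, 17.1, 12.5 and 17.3 CPM with GK and 14.2 to 31.9 CPM with GK and a vector. Its means were higher with GK and a vector than with the same vector alone by 0.32 on the log2 scale (95% interval 0.06 to 0.57, unadjusted p = 0.0244, adjusted p = 0.723), in 10 of 12 pairs within mice, and the sample of mouse 1 with GK+mP was the highest of the 30. Trp53inp1, a stress-induced partner of p53, was 205.2, 372.7 and 323.1 CPM untreated, and its log2 fold change with the 4 vectors was -0.06 (95% interval -0.82 to 0.71). In this fit without a mouse term, the interval was wider than that of any other member measured at a like depth. With the mouse as a block the log2 fold change of Trp53inp1 was -0.12 (95% interval -0.37 to 0.13).

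Zmat3, which encodes a zinc-finger protein that binds RNA, was 45.0, 23.8 and 49.3 CPM in untreated hepatocytes. The value of mouse 2 summed 2 unlike cultures, of which 1 held 2 reads (0.31 CPM) and the other 46.0 CPM. Among genes that reached at least 10 CPM in each of the other 35 libraries before scaling, Zmat3 was the 1 gene under 1 CPM in that library, and its main transcript is listed at 0 reads there, so this value can be a failed estimate. With the 4 vectors Zmat3 was 31.9 to 46.6 CPM and the log2 fold change was -0.03 (SE 0.17). Without that culture it was -0.28 (SE 0.14, adjusted p = 0.507), and all 12 vector samples lay below the untreated sample of the same mouse, as for 4.85% of all genes. With the culture kept, no member was lower in all 12, against 4.33% of all genes.
With GK alone Zmat3 was 38.7, 56.4 and 51.4 CPM, and with GK and a vector it was 26 to 46.4 CPM. All 12 samples with GK and a vector lay below the GK sample of the same mouse, by 0.15 to 0.66, which held for no other member and for 5.31% of all genes, while no member was higher in all 12 (4.2% of all genes). The groups themselves overlapped. The log2 fold change was -0.37 (SE 0.17, unadjusted p = 0.0388, adjusted p = 0.449) and was not called.

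Of the targets tied to cell death, Bbc3 moved most and was measured least precisely. Bbc3 encodes PUMA, a BH3-only protein that frees Bax and Bak to open the mitochondrial membrane. It was 1.88, 4.05 and 2.31 CPM in untreated hepatocytes and 1.81, 1.96 and 0.879 CPM with GK, the latter from 3 to 16 reads per culture. With GK+hP it was 2.21, 6.30 and 7.46 CPM, and with GK+hL it was 2.07, 3.87 and 6.32 CPM. With GK+mP it was 4.14, 4.74 and 6.06 CPM, and with GK+mL it was 1.22, 4.12 and 4.96 CPM. Of these 12 samples 11 exceeded the GK sample of the same mouse, and the sample of mouse 1 with GK+mL, the exception, was within the range of the GK samples. The mean of the 4 vectors with GK was 2.81-fold GK alone (log2 fold change 1.49, SE 0.45, unadjusted p = 0.00335, adjusted p = 0.11), which was not called. With the mouse as a block it was called for the mean of the 4 vectors (1.39, SE 0.38, adjusted p = 0.0255), for GK+hP (1.65, SE 0.45, adjusted p = 0.0395) and for GK+mP (1.63, SE 0.46, adjusted p = 0.0268), where 4.34%, 3.27% and 6.36% of all genes were called. For GK+mP, 1 of 10 members stands beside a share of all genes that is near it. DESeq2 called 1 member, Bbc3, for the mean of the vectors (2.48% of all genes), and with each culture as a sample 1 member was called for the mean, GK+hP and GK+mP (3.13%, 1.51% and 2.92%). The ratio within mice was 0.24 in mouse 1, 1.07 in mouse 2 and 2.27 in mouse 3, and without mouse 3 the log2 fold change was 0.87 (adjusted p = 1.0).
At endogenous GK, Bbc3 was 2.04 to 8.98 CPM with the 4 vectors and exceeded the untreated sample of the same mouse in 11 of 12. The log2 fold change was 0.77 (95% interval -0.06 to 1.60, adjusted p = 0.658). GK alone against the 5 combined groups of endogenous GK gave -1.47 (SE 0.45, unadjusted p = 0.00303, adjusted p = 0.191), and no member was called there, against 0.427% of all genes. Bbc3 was called lower there by DESeq2 (-1.47, adjusted p = 0.0345, 1.36% of all genes) and with each culture as a sample (-1.35, adjusted p = 0.0452, 1.3% of all genes). Of those 5 groups, 4 received a GKRP vector, so this comparison also holds the difference between vector and untreated cultures. Against untreated cultures alone, GK gave -0.82 for Bbc3 (95% interval -1.85 to 0.21). In the presence of a vector, the GK effect on Bbc3 was -0.11 (95% interval -0.62 to 0.41).

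Bax, which forms the pore in the mitochondrial membrane, was 113.4, 106.1 and 85.2 CPM untreated, 90.8 to 120.9 CPM with the 4 vectors and 111.0, 111.9 and 109.7 CPM with GK. The sample of mouse 1 with GK+mP reached 180.3 CPM, and the other 11 samples with GK and a vector lay between 102.1 and 146.1 CPM. The log2 fold change with the 4 vectors was 0.09 (95% interval -0.15 to 0.34) at endogenous GK and 0.12 (95% interval -0.13 to 0.37) with GK. Eda2r, a receptor of the TNF receptor family, was 11.7, 13.3 and 15.5 CPM untreated and 10.1 to 19.0 CPM with the 4 vectors, with a log2 fold change of 0.16 (95% interval -0.27 to 0.59). With the mouse as a block the log2 fold change of Eda2r was 0.15 (95% interval -0.07 to 0.37). Neither gene separated any of these groups.

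Trp53 itself was 72.3, 53.7 and 47.8 CPM in untreated hepatocytes, 47.1 to 66.2 CPM with the 4 vectors, 72.1, 54.4 and 55.0 CPM with GK and 46.0 to 85.9 CPM with GK and a vector. The groups overlapped. The log2 fold change of the 4 vectors was -0.07 (95% interval -0.38 to 0.24), that of GK was 0.06 (95% interval -0.33 to 0.46) and that of the vectors with GK was 0.05 (95% interval -0.27 to 0.36). With the mouse as a block these values were -0.06 (-0.24 to 0.12), 0.07 (-0.16 to 0.29) and 0.04 (-0.14 to 0.22). These are levels of the transcript, and the level or activity of the p53 protein was not measured in these files.

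Over the 10 members, the median log2 fold change with the 4 vectors was 0.13, with 7 above and 3 below 0, beside a median of 0.00 over all genes. For the 4 vectors with GK against GK alone it was 0.08, with 8 above and 2 below 0, beside 0.01 over all genes. No member was called for the mean of the vectors with GK or for GK+hP, GK+hL, GK+mP or GK+mL, where 1.61%, 0.879%, 0.599%, 1.64% and 0.591% of all genes were called. For these 5 comparisons, 3, 1, 1, 3 and 2 members had an unadjusted p under 0.05. No member lay wholly above or below the GK samples, as 1.63% and 1.17% of all genes did.

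**Figure D3:**
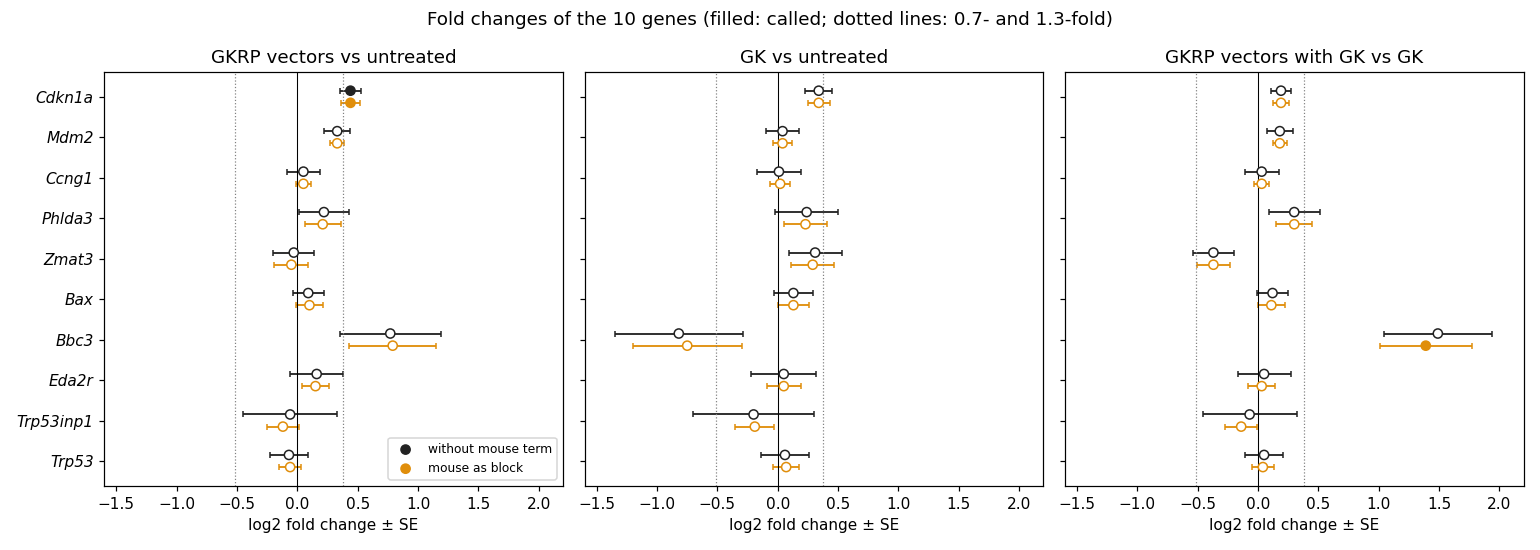
Log2 fold change ± SE of the 10 members (x axis) in 3 comparisons (4 GKRP vectors against UN, GK against UN, 4 vectors with GK against GK), fitted without (black) and with (orange) the mouse as a block. Filled points were called, namely Cdkn1a in the first panel under both fits (0.44) and Bbc3 in the third with the block (1.39).

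The 446L and 446P forms of GKRP, which differ in a single amino acid, gave no called difference in any member. For hL against hP and mL against mP at endogenous GK, and for hL against hP with GK, 0.0% of all genes were called by edgeR, and for mL against mP with GK 0.0164% were. With the mouse as a block 0.131% were called for hL against hP and 0.214% for mL against mP with GK, with 0 members among them, although 2 genes of the wider p53 list described below were, Ddit4 (0.98 for hL against hP, adjusted p = 0.0122) and Rrm2b (1.31 for mL against mP, adjusted p = 0.0184). In these 4 comparisons 0 members had an unadjusted p under 0.05 and DESeq2 called 0 members, although it called 19, 12, 11 and 19 genes in all. For Cdkn1a the difference on the log2 scale was 0.06 between hL and hP (95% interval -0.14 to 0.27) and -0.04 between mL and mP (95% interval -0.25 to 0.16). With GK it was 0.10 (95% interval -0.11 to 0.31) and 0.00 (95% interval -0.21 to 0.21). Bbc3 left the widest intervals, as from -1.57 to 0.51 for mL against mP with GK. The effect of GK in the presence of a vector called no member (0.0164% of all genes were called), and the vector by GK interaction called none either (0.0% of all genes by edgeR, with 178 genes and 1 member, Cdkn1a, at an unadjusted p under 0.05, and 20 genes and 0 members by DESeq2).

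Among other known p53 targets, 36 of a list of 40 were tested, and 2 rose with the mean of the 4 vectors while none fell. Of all genes 1.89% were called there. Pcna, the sliding clamp of DNA polymerases, was 64.0, 83.8 and 71.7 CPM untreated and 123.7 to 187.2 CPM with the 4 vectors. The groups did not overlap, as for 1.95% of all genes that were higher (log2 fold change 1.01, SE 0.14, adjusted p = 0.000102). Pidd1, the gene of a scaffold for caspase-2, was 2.18, 2.02 and 2.09 CPM untreated and 2.85 to 8.74 CPM with the 4 vectors (log2 fold change 1.4, SE 0.37, adjusted p = 0.0459). With GK the same 2 genes rose over GK alone (0.95 and 1.44), where 1.61% of all genes were called. Pcna was called with each of the 4 vectors in both settings. By vector, 0.78% to 1.12% of all genes were called at endogenous GK and 0.591% to 1.64% with GK. Sesn2, a stress-induced regulator of mTORC1, was called with hL (0.61, SE 0.15, adjusted p = 0.046), where 0.879% of all genes were. Gadd45a (0.39, adjusted p = 0.391), Btg2 (-0.35, adjusted p = 0.383), Pmaip1 (0.96, adjusted p = 0.881) and Fas (0.02, adjusted p = 1.0) were not called with the mean of the vectors. In the fit with the mouse as a block, Btg2, which restrains proliferation, was called lower with mP (-0.57, adjusted p = 0.0144), and Rrm2b, a subunit of ribonucleotide reductase, lower with GK+mP against GK (-1.09, adjusted p = 0.00376). Ddit4, an inhibitor of mTORC1, was then called higher with hL (0.88, adjusted p = 0.00154), mL (0.74, adjusted p = 0.00638) and GK+hL against GK (0.68). Pml, the scaffold of nuclear bodies, was called higher with mP (0.63, adjusted p = 0.0301), and over GK with GK+mP (0.59) and the mean of the vectors (0.49). Sesn2 was called with hL (0.60) and with GK+hL over GK (0.47). These block fits called 2.97% of all genes for hL, 3.31% for mP and 3.16% for mL. Over GK they called 6.36% for GK+mP and 4.34% for the mean of the vectors. For GK+hL they called 198 genes higher and 111 lower. The median of the list was 0.04. Pcna is also a gene of DNA replication, and the list does not separate that role.

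Of 24 regulators of p53, 20 were tested and 1 was called, against 1.89% of all genes for the mean of the vectors. The regulator called was Chek1, the kinase of the replication checkpoint. It was 0.594, 0.975 and 0.596 CPM untreated and 5.09 to 13.9 CPM with the 4 vectors (log2 fold change 3.59, SE 0.39, adjusted p = 5.72e-06), and with GK the vectors raised it over GK alone by 2.65 (SE 0.36, adjusted p = 9.29e-05). Mdm4, the relative of Mdm2 that blunts p53, was at -0.03 (SE 0.21) and Atm at 0.15 (SE 0.26). Of 13 other members of the BCL2 family, which sets the threshold for Bax, 10 were tested and none was called in any comparison. Bok stood at 0.85 with the vectors (SE 0.28, adjusted p = 0.171). With the mouse as a block 3 were called over GK alone, all of them higher, in fits that called 243 genes higher and 155 lower for GK+hP (3.27% of all genes) and 431 higher and 344 lower for GK+mP (6.36%). These were Bak1, the other pore-forming protein, with GK+hP (0.39, adjusted p = 0.0451) and GK+mP (0.48, adjusted p = 0.00647), Bcl2l2, a survival protein, with GK+hP (0.47, adjusted p = 0.028) and Bad, a BH3-only protein, with GK+mP (0.69, adjusted p = 0.0135).

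Of 17 cyclins, CDKs and other CDK inhibitors, 12 were tested, and with the mean of the vectors 5 rose and 1 fell. Over all genes 1.89% were called in that comparison. The genes of cyclin E, Ccne1 (2.87, SE 0.56) and Ccne2 (2.93, SE 0.33), rose with Cdk2 (1.31, SE 0.15), the kinase that cyclin E activates and p21 inhibits. Cdk1 (2.30, SE 0.61, adjusted p = 0.0465) and Cdkn2c (1.39, SE 0.34), which encodes the inhibitor p18, also rose, and Cdk6 fell by 0.84. Cdk1 and Cdkn2c were low, at 0.522 to 0.693 and 0.675 to 1.19 CPM untreated. With the 4 vectors they were 0.407 to 4.82 and 1.47 to 3.75 CPM. The Cdk1 value of 0.407 CPM, with mL in mouse 2, lay below the untreated sample of that mouse (0.525 CPM). Neither Cdk1 nor Cdkn2c was called with a single vector in the fit without a mouse term. With GK, 4 rose and 1 fell, and with the mouse as a block the counts were 8 and 1 at endogenous GK and 6 and 1 with GK. Of all genes, 1.61% were called with GK, and with the block 4.16% at endogenous GK and 4.34% with GK. Those added by the block at endogenous GK were Ccnd3 (0.51), Cdk4 (0.41) and Cdkn1b (0.73), and the step of Cdkn1a in that fit was 0.44.

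**Figure D4:**
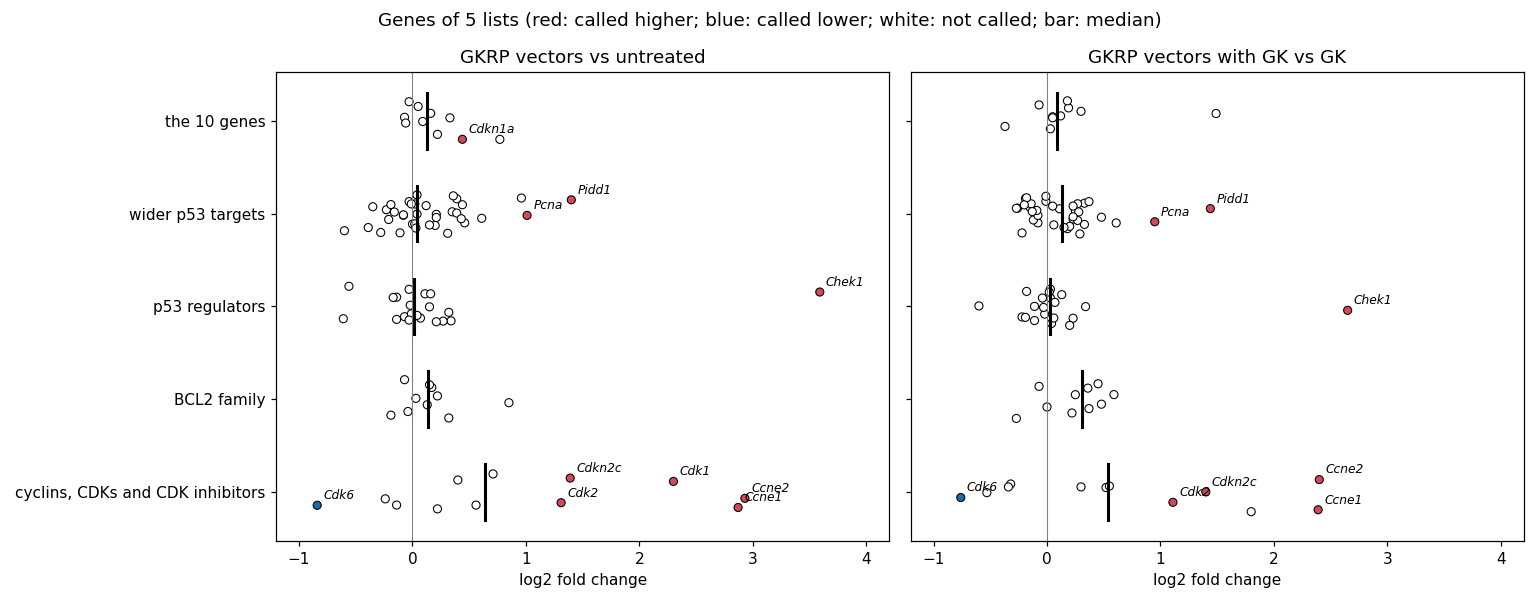
Log2 fold change of single genes (x axis) in 5 lists (rows), with the 4 GKRP vectors set against UN and, with GK, against GK. Chek1 (3.59) and the cyclin E genes (2.87 and 2.93) lie far to the right of Cdkn1a (0.44), and the median of the 10 members (0.13) lies near 0.

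Several members differed between mice more than between conditions. Trp53inp1 was lowest in mouse 1 and highest in mouse 2 in all 10 conditions, at 93.6 to 205.2 CPM in mouse 1, 305.3 to 416.6 CPM in mouse 2 and 220.9 to 336.3 CPM in mouse 3, so that the 3 mice overlapped only between mouse 2 and mouse 3. Ccng1 and Eda2r were also lowest in mouse 1 in all 10 conditions, and Mdm2 and Zmat3 in 9 of 10. Trp53 went the other way and was highest in mouse 1 in 9 of 10 conditions. The share of the variance of log2 CPM over the 30 samples that lay between mice was 85.3% for Trp53inp1, 78.9% for Ccng1, 70.0% for Eda2r and 58.5% for Trp53. For Cdkn1a it was 4.1%, and 73.8% lay between conditions. Each mouse is 1 preparation, so mouse, preparation and, for mouse 3, genotype cannot be told apart, and 3 mice allow no test of genotype.

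**Figure D5:**
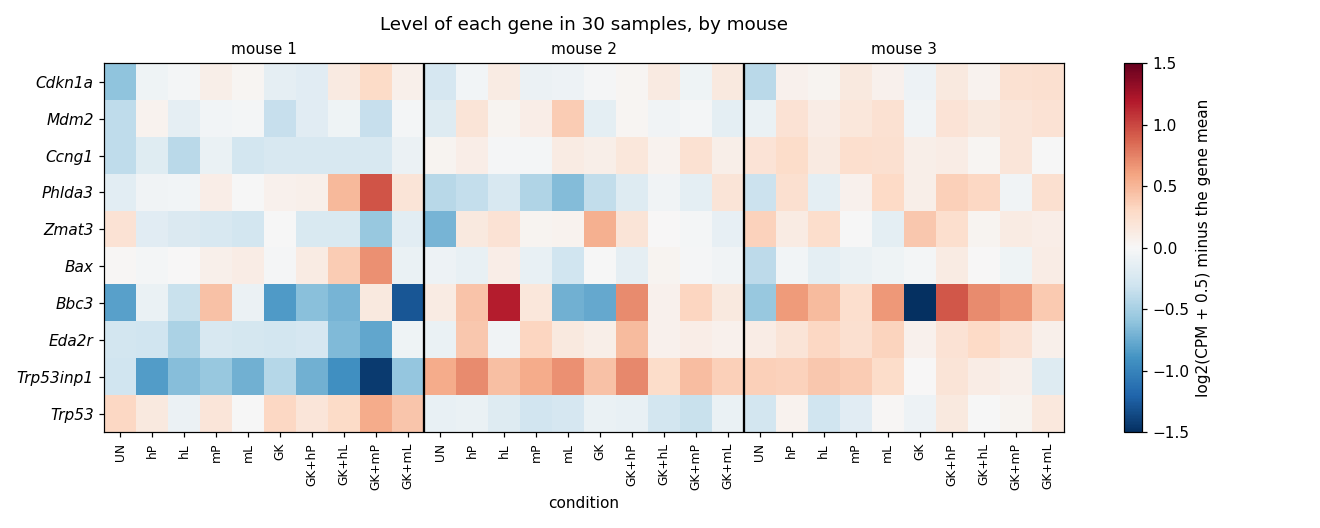
Heat map of log2 (CPM + 0.5) of each member minus its mean over 30 samples (colour), by mouse and condition (columns). Trp53inp1 is low throughout mouse 1 and high throughout mouse 2, and the GK+mP sample of mouse 1 stands out in several rows.

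The GK+mP sample of mouse 1 held the highest of the 30 values for Cdkn1a (344.9 CPM), Phlda3 (31.9 CPM), Bax (180.3 CPM) and Trp53 (85.9 CPM) and the lowest for Trp53inp1 (93.6 CPM) and Eda2r (8.12 CPM). Over all genes its median absolute deviation from the condition mean was 0.32 on the log2 scale, against 0.113 to 0.235 in the other 29 samples. Without it no call of a member was lost, and Cdkn1a was also called with mL (0.42, adjusted p = 0.0349), as it was without the untreated culture low in Zmat3 (0.44, adjusted p = 0.0373). Without the GK+mP sample of mouse 1, genes called for GK+mP against GK went from 125 to 96 higher and from 75 to 30 lower. The calls with GK+mP in the block fit, as of Bbc3, Rrm2b, Bad, Bak1 and Reln, include this sample. The block was not fitted without it. Reads of a member and of a gene that overlaps it could not be separated by strand here. The genes concerned were Nudcd2 for Ccng1 (median 193 reads), Wrap53 for Trp53 (42), Gm45808 for Bax (5) and Dino for Cdkn1a (4).

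The genes whose 10 condition means were most like those of Cdkn1a, by Pearson's r over log2 CPM among the 7757 genes with at least 10 CPM, were Pold1 (0.959), Lgals3bp (0.951), Blvrb (0.946), Aldh1l1 (0.942) and Dgat2 (0.941). For Mdm2 they were Oser1 (0.966), Nr1d2 (0.965), Ccdc88c (0.961) and Resf1 (0.95), and for Trp53inp1 they were Il6st (0.974), Usp32 (0.973), Met (0.971), Lpgat1 (0.969) and Qser1 (0.966). None of the genes listed is a member. Among the members, the condition means of Cdkn1a correlated at 0.78 with those of Phlda3, 0.67 with Bax, 0.54 with Mdm2 and -0.70 with Trp53inp1. With the others r was 0.46 (Bbc3), 0.26 (Ccng1), 0.21 (Trp53), 0.08 (Eda2r) and -0.23 (Zmat3). These r describe 10 points that share libraries and mice. The GK+mP mean includes the sample of mouse 1 that was extreme for Cdkn1a, Phlda3, Bax and Trp53inp1.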

How the data were processed

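RNA was sequenced from 36 cultures, 10 conditions by 3 mice, with 2 cultures per mouse for UN and GK. The authors deposited the output of Salmon 1.4.0 on mouse transcripts (GRCm39; Gencode M26 by the study's methods), giving for each transcript an estimated count of reads, TPM and effective lengths. The expected counts, deposited by the authors, are reads that Salmon assigned to each transcript, not normalized. TPM, as the authors deposited it, was used for shares of transcripts within a gene. Estimated counts were summed to 52230 genes through a later Gencode release of the same build (98.8% of 139225 transcripts matched, and the rest held 0.392% to 0.639% of reads), rounded, and summed over the 2 cultures of a mouse, which gave 30 samples. Libraries held a median of 5980276 reads. In the fit without a mouse term, the standard errors cover counting error and the spread between mice. In the fit with the mouse as a block, differences in level between mice are taken out of them.

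Genes were filtered with filterByExpr (12177 left) and scaled with TMM (0.901 to 1.09), and CPM are scaled counts. Comparisons used edgeR 4.0.16 (glmQLFit, glmQLFTest) in R 4.3.3 over all 30 samples and 10 conditions, and p-values were adjusted over the 12177 genes by the Benjamini-Hochberg method. Called means an adjusted p under 0.05 and a fold of at least 1.3 or at most 0.7. The 95% intervals are normal intervals from the SE. On simulated data with genes changed by a fold of 2 in the vector mean, 57.3% of 199 were recovered among 12047 genes and 7.32% of calls were false. Ratios within a mouse used CPM plus 0.5. Same-numbered samples come from the same mouse, and their deviations from condition means correlated at 0.223 on average, against -0.11 between mice. The mouse as a block was the alternative fit (coefficient of variation 0.231 against 0.323). Other alternatives were RLE scaling, DESeq2 1.42.0, no filter, single cultures, a length offset, each mouse left out, and single cultures left out.

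The members and gene lists were chosen with earlier results of these data known. All 10 members were named. Of the lists, called genes were named (at most 8 per list and comparison), and for likeness the 5 genes with the highest r, except that some genes are not reported here. Gadd45a, Btg2, Pmaip1, Fas, Mdm4, Atm, Bok and the list genes called only with the block were named after their values were seen.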

Additional observations from a re-analysis of the deposited data

Results flagged for a closer look

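In the 6 untreated and the 6 GK cultures, the 10 members and Gckr were examined for a culture far from the other 5. Chance flags about 1 in 20 such sets if the 6 cultures are independent. They were 2 from each of 3 mice, so that rate need not hold here. By the gap to the nearest culture as a share of the whole range, 3 cultures were far from the others. Zmat3 was 0.31 CPM in 1 untreated culture of mouse 2, against 43.6 to 50.1 CPM in the others. Cdkn1a was 223.8 CPM in 1 GK culture of mouse 1, against 264.1 to 282.7 CPM. Gckr was 1459.4 CPM in 1 GK culture of mouse 3, against 51.6 to 97.8 CPM. What sets these cultures apart was not tested.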

How the results depend on the processing

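Of the single-gene results under the alternatives, 326 kept their direction and side of the threshold, 27 changed sign, 4 of Cdkn1a lost and 3 of Bbc3 gained a call, and none that changed sign was called. Of the counts of members called, 185 stayed and 31 moved. The cause was not tested. Depth limits Bbc3 most, at 3 to 57 reads per library. Leaving out the GK+mP culture of mouse 1 or the untreated culture low in Zmat3 was chosen after seeing the data.

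With the mouse as a replicate block (paired by animal), members called became 2 for hP and 2 for mL against untreated. Against GK they became 1 for the vector mean with GK, 1 for GK+hP and 1 for GK+mP. In these 5 comparisons 2.46%, 3.16%, 4.34%, 3.27% and 6.36% of all genes were called. The block changed no other call of a member, while it also raised the genes called over all genes, as from 200 to 775 for GK+mP. DESeq2 gave 1 for hP, 1 for mL, 1 for GK against the 5 combined groups and 1 for the vector mean with GK. It called 1.4%, 1.61%, 1.36% and 2.48% of all genes there. Single cultures gave 1 for each of hP, mL, GK against the 5 groups, the vector mean with GK, GK+hP and GK+mP. The shares of all genes called were then 1.33%, 1.68%, 1.3%, 3.13%, 1.51% and 2.92%. With no filter, and with the length offset, members called were 0 for the vector mean, 0 for hL and 0 for mP. Without the GK+mP culture of mouse 1, and without the untreated culture low in Zmat3, mL had 1. Leaving out a mouse gave 0 to 1 for the vector mean, and 0 for hL and mP in each case.

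With the length offset, log2 fold changes became -0.44 (Phlda3) and -0.10 (Eda2r) for the vector mean, -0.38 (Mdm2), -0.10 (Phlda3) and -0.18 (Eda2r) for GK against untreated, and -0.21 (Ccng1), -0.12 (Bax) and 0.10 (Trp53inp1) for the vectors with GK. With no filter Ccng1 was -0.02 for the vectors with GK. For GK against untreated, Mdm2 was 0.00 and Ccng1 -0.01 without the GK culture with raised Gckr, and Ccng1 0.00 without the untreated culture low in Zmat3. Without the GK+mP culture of mouse 1, Trp53inp1 was 0.02 and Trp53 -0.02 for the vectors with GK. Leaving out a mouse gave, for the vector mean, -0.37 to 0.16 (Zmat3), -0.03 to 0.15 (Bax), -0.15 to 0.02 (Trp53inp1) and -0.21 to 0.04 (Trp53). It gave, for GK against untreated, -0.04 to 0.08 (Ccng1), -0.07 to 0.56 (Zmat3), -0.04 to 0.10 (Eda2r) and 0.00 to 0.11 (Trp53), and for the vectors with GK, -0.03 to 0.11 (Eda2r), -0.15 to 0.03 (Trp53inp1) and -0.02 to 0.11 (Trp53).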
